A study of Mus musculus with 6 samples.

Results

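The SWI/SNF complexes of mammals, called BAF after BRG1-associated factors, use ATP to move nucleosomes and open chromatin. Each complex is built around an ATPase, Smarca4 (BRG1) or its paralog Smarca2 (BRM), with core and accessory subunits that often come as alternative paralogs. During neural development some of these alternatives are exchanged, the best known case being the replacement of Actl6a by the neuronal Actl6b. The repressor REST, also called NRSF, is known to act with BRG1-containing complexes and with the corepressor CoREST. The values described here are those of the BAF subunit genes Smarca2, Smarca4, Smarcb1, Smarcc1, Smarcc2, Smarcd1, Smarcd3, Smarce1, Arid1a and Actl6b. They were taken from every array spot that the platform's gene table assigns to a gene on this list. The rule found 19 spots for 9 of the 10 genes, all with a value on every array, among 43530 such spots and 19019 genes. No spot named Arid1a, which encodes the ARID-domain subunit of the canonical complex, so it was not analysed here.

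RNA came from N18, a murine neuroblastoma cell line, transfected with an siRNA against Nrsf (official symbol Rest) or, as the control, with a scrambled siRNA. Each of 6 two-channel arrays carried both RNAs, with the siRNA sample in Cy5 on arrays 1 to 3 and in Cy3 on arrays 4 to 6. All samples come from this line, and neither the siRNA sequences nor the time after transfection is given in the sources used here. Whether each array had its own transfection is not stated, so the p-values reflect only the variation among these 6 arrays, which may be partly technical.

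The values are the authors' normalized log ratios, read as log2 of siRNA over scrambled. This direction is likely rather than settled. It sets the treatment over its control and, on arrays 1 to 3, is Cy5 over Cy3 and the order in the sample names. The names of arrays 4 to 6 put the scrambled sample first. If the ratio ran the other way, each direction below would be swapped, and Rest, the target of the siRNA, would be higher. Ratios hold no expression level, so the identity of the line could not be checked against its markers, and levels of different subunits cannot be compared. In bulk RNA, fewer cells of a type and less RNA per cell cannot be told apart. Between 43689 and 43778 spots had a value on each array. Array 1 stood apart, correlating with the others at 0.29 to 0.37 across genes, against 0.54 to 0.82 among arrays 2 to 6. Its 5th percentile of genes was -0.53, against -0.26 to -0.21 on the others. Rest itself was lower on 6 of 6 arrays (log2 ratio -0.35 ± 0.13, SD, n = 6, adjusted p = 0.00353 in limma). This is the mean of 3 spots, at -0.44 ± 0.15, -0.55 ± 0.09 and -0.05 ± 0.19, and the last, which is also the first in the file, was not called (adjusted p = 0.751, or 0.742 for the gene with this spot alone). Markers of glial, mesenchymal and immune cells were not called (0 of 8, 0 of 10 and 0 of 5 measured), with 1, 1 and 0 at an unadjusted p under 0.05 in limma. Their medians were 0.01, 0.0092 and 0.0096.

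The promoters of 5 subunit genes are shown because their transcripts gave the clearest contrast: Smarca4, Smarcc1 and Smarcb1 had the lowest gene means, Smarcd3 the highest, and the neuronal Actl6b stayed near 0. Each is the 300 bases from 250 before to 50 after the start of the gene in RefSeq (GRCm38.p6), read 5′ to 3′ on the gene's strand. Capitals mark GCATGCGC, part of the NRF1 element, or GGACAG, from the right side of the REST element, on either strand.
Smarca4, chr9:21615919-21616218, plus strand: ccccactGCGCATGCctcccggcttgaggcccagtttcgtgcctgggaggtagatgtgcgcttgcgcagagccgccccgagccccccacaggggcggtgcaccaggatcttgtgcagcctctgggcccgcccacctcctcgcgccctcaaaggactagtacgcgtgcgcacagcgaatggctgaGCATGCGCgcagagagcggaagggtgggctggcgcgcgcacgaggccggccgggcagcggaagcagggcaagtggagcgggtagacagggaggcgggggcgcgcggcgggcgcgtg
Smarcc1, chr9:110131774-110132073, plus strand: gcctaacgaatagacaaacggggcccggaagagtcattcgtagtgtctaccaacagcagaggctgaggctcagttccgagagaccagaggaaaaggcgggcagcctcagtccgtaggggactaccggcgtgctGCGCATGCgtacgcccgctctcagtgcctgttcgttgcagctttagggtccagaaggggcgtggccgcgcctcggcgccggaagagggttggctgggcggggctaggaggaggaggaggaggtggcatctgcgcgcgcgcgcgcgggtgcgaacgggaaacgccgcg
Smarcb1, chr10:75921565-75921864, minus strand: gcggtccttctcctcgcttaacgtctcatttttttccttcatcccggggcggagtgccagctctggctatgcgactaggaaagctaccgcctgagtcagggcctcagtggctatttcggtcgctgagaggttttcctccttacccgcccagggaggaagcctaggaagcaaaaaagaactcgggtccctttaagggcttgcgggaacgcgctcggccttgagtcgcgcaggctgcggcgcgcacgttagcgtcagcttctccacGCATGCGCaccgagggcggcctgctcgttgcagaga
Smarcd3, chr5:24601953-24602252, minus strand: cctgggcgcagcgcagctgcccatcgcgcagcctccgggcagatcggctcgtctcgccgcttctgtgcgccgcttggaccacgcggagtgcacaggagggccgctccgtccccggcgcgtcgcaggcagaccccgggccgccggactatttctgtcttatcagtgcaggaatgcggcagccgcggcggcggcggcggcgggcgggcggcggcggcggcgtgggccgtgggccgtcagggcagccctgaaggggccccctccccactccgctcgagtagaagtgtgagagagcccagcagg
Actl6b, chr5:137553296-137553595, plus strand: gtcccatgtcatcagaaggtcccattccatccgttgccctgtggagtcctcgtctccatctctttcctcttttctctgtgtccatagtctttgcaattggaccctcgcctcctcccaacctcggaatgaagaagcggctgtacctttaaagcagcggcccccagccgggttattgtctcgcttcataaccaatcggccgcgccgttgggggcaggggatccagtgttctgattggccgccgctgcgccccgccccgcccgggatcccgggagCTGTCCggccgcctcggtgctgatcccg

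The letters GCATGCGC occurred in the promoters of Smarca4, Smarcc1 and Smarcb1 and in none of the other 7 member promoters. Smarca2, which was called lower, lacked them, and Smarcb1, which held them, was not called. The letters GCATGCGC occurred in 2.71% of all 32851 RefSeq promoters of this length. From the REST element, the left side TTCAGCACC was in 0 of 10 member promoters (0.371% of all), and GGACAG was in 3 of 10 (22.2% of all), Actl6b and Smarcc2 among them. The Sp/KLF letters GGGCGG were in 10 of 10 (35.7% of all), and CCAAT was in the Actl6b promoter alone (37.4% of all). Also searched on both strands were the longer NRF1 element (GCGCA, any base, GCGC), which can overlap GCATGCGC, and CCGGAAG, AANATGGCG, TGACGTCA and TGACG, where TGACG lies within TGACGTCA. They were found in 1, 2, 1, 0 and 2 of the 10, and in 4.6%, 8.86%, 2.38%, 1.79% and 20.8% of all promoters. The 8 member promoters other than those of Arid1a were 60.7% to 81.0% G and C, against a median of 52.7% for all promoters, and the part of this in the counts of GC-rich letters was not tested. These motifs were chosen with the members' ratios known, and a match describes letters in these windows and not a bound site. Arid1a has 2 of the 10 promoters, and Smarce1 has none in the table.

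Across the 9 measured genes, 4 fell (Smarca2, Smarca4, Smarcc1 and Smarce1), 1 rose (Smarcd3) and 4 were not called. Over all genes 15.0% were called, 9.11% lower and 5.88% higher, by limma with an adjusted p under 0.05. The median of the 9 gene means was -0.18, beside 0.0025 for all genes. The gene means lay between 79.0% and 139% of the scrambled level. Among the spots, 5 of 19 fell and 1 rose, where 6.85% and 4.21% of all spots did (11.1% in either direction). A further view without any model counts 8 spots below 0 on 6 of 6 arrays, which held for 8.67% of all spots. None of the 19 was above 0 on all 6 arrays, where 5.06% of all spots were. For gene means the counts were 5 of 9 below 0 on every array (11.6% of all genes) and 0 above it (6.30%).

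**Figure D1:**
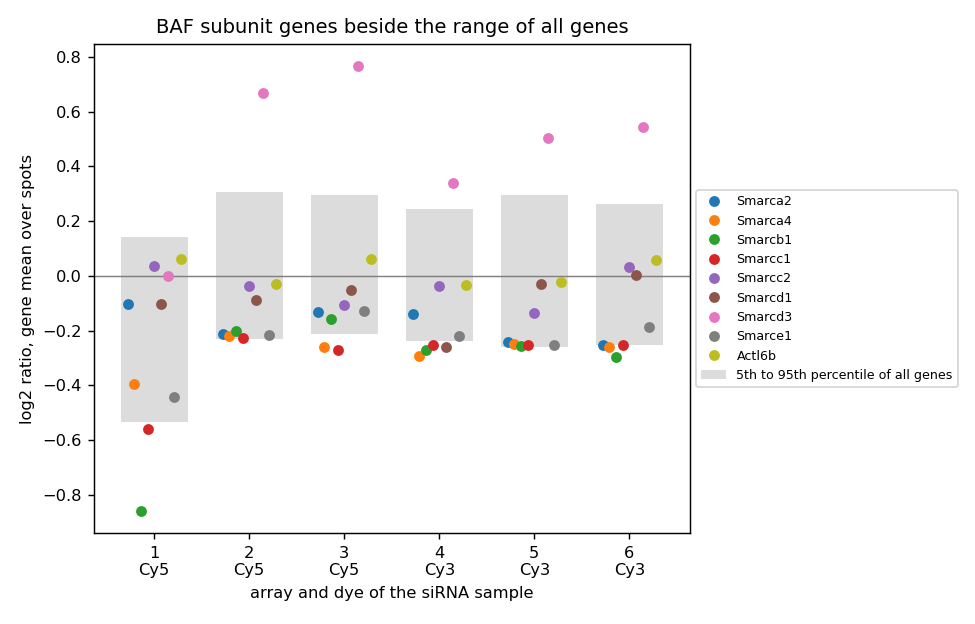
Log2 ratio (siRNA over scrambled) of each measured BAF subunit gene, averaged over its spots, on arrays 1 to 6 with the dye of the siRNA sample below. Grey bars span the 5th to the 95th percentile of all genes on that array. Smarcd3 lies above the bar on arrays 2 to 6 and at 0 on array 1, where Smarcb1 is lowest at -0.86.

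Smarca4, which encodes the ATPase BRG1, fell to 82.4% of the scrambled level. Its gene mean was -0.28 ± 0.06 (SD, n = 6, adjusted p = 0.00207 in limma), and it lay between -0.39 and -0.22 on the 6 arrays. Only 3.53% of all genes had a mean as low or lower. Smarca4 is represented by spots a, b and c, lettered in the order of the file, all of which are listed for the same transcript. Spot a stood at -0.53, -0.43, -0.42, -0.43, -0.33 and -0.30 on arrays 1 to 6. Spot b stood at -0.77, -0.18, -0.32, -0.44, -0.45 and -0.44, and spot c at 0.12, -0.05, -0.04, -0.02, 0.03 and -0.04. Spots a and b were thus below 0 on every array while spot c scattered around 0, and the values of c did not overlap those of a or b. Spot a fell (mean -0.41 ± 0.08, adjusted p = 0.000617 in limma) and so did spot b (-0.43 ± 0.20, adjusted p = 0.0108). For spot c the mean was -0.0005 ± 0.06 (adjusted p = 0.997 in limma), with a 95% interval of -0.07 to 0.07. The gene mean thus combines spots at 75.5%, 74.1% and 99.97% of the scrambled level.

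Smarca2 encodes BRM, the alternative ATPase. As a gene it fell less, to 88.3% of the scrambled level (-0.18 ± 0.06, SD, n = 6, adjusted p = 0.00683 in limma), and this rested on 1 of its 3 spots. Spot c stood at -0.34, -0.57, -0.50, -0.41, -0.75 and -0.65 on arrays 1 to 6, below 0 throughout. This spot fell (mean -0.54 ± 0.15, adjusted p = 0.00158 in limma), to 69.0% of the scrambled level. Spots a and b stayed between -0.09 and 0.09 on all arrays, with means of -0.03 ± 0.07 and 0.03 ± 0.04 (adjusted p = 0.694 and 0.690 in limma). Spot c is listed for a separate RefSeq transcript record of Smarca2, while spots a and b share another record. With the median of the spots in place of their mean, Smarca2 was at -0.05 (adjusted p = 0.301 in limma), and with the first spot it was at -0.03 (adjusted p = 0.681).

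**Figure D2:**
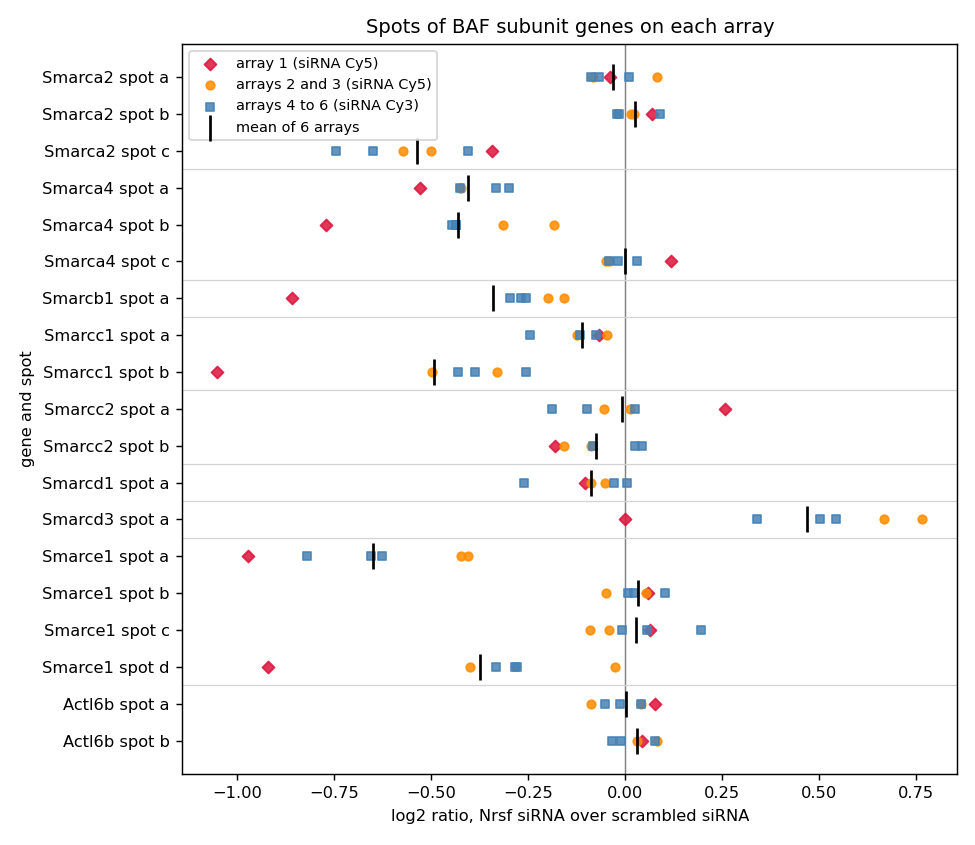
Log2 ratio (siRNA over scrambled) of each of the 19 spots, grouped by gene, with a point for each array (diamond, array 1; circles, arrays 2 and 3; squares, arrays 4 to 6) and a vertical tick at the mean of 6 arrays. Smarca2 and Smarca4 each have spots below 0 on every array beside spots around 0, and the means of the Smarce1 spots run from -0.65 to 0.03.

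Smarcb1 and Smarcc1 encode core subunits of the complex. Smarcc1 (BAF155), a scaffold with a SWIRM and a SANT domain, fell to 81.1% of the scrambled level (-0.30 ± 0.13, SD, n = 6, adjusted p = 0.00716 in limma). Its gene mean was -0.56 on array 1 and between -0.27 and -0.23 on arrays 2 to 6. Spot b of Smarcc1 stood at -1.05, -0.33, -0.50, -0.43, -0.39 and -0.26 on arrays 1 to 6, and it fell (mean -0.49 ± 0.29, adjusted p = 0.0145 in limma). Spot a was also below 0 on every array, between -0.25 and -0.05. With a mean of -0.11 ± 0.07 it did not pass (adjusted p = 0.0614 in limma).

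Smarcb1, the SNF5 homolog and a tumour suppressor of rhabdoid tumours, has a single spot. It stood at -0.86, -0.20, -0.16, -0.27, -0.26 and -0.30 on arrays 1 to 6. All 6 values were below 0, yet the mean of -0.34 ± 0.26 (79.0% of the scrambled level, 95% interval -0.56 to -0.12) did not pass the threshold (adjusted p = 0.0528 in limma). The 5 values other than array 1 lay between -0.30 and -0.16. Without array 1 the mean was -0.23 ± 0.06 and passed (adjusted p = 0.000138 in limma). It also passed with quantile normalization between arrays (-0.32, adjusted p = 0.00346). With array 1 left out, 5 member genes were lower and 1 higher, where 12.2% and 13.7% of all genes were called (25.9% in either direction). Among the spots 8 were then lower and 1 higher, beside 9.55% and 9.89% of all spots.

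Smarce1 (BAF57), the HMG-box subunit, fell to 84.6% of the scrambled level as a gene (-0.24 ± 0.11, SD, n = 6, adjusted p = 0.0119 in limma). Its 4 spots did not read alike. Spot a stood at -0.97, -0.42, -0.41, -0.65, -0.82 and -0.63 on arrays 1 to 6 and fell to 63.7% of the scrambled level, the lowest mean of any member spot (-0.65 ± 0.22, adjusted p = 0.00345 in limma). Spot d, listed for the same RefSeq transcript, stood at -0.92, -0.40, -0.03, -0.29, -0.28 and -0.33. Its mean was -0.37 ± 0.30 and did not pass (adjusted p = 0.0664 in limma). Spots b and c are each listed for a cDNA clone record, and they lay around 0 with means of 0.03 ± 0.05 and 0.03 ± 0.10. Spots a and b differed on 6 of 6 arrays, by -0.68 ± 0.26 on the log2 scale. As a gene Smarce1 missed the threshold without array 4, 5 or 6 (adjusted p = 0.0512, 0.0646 and 0.0524 in limma).

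Differences between spots of a gene were tested over 15 pairs of spots in 6 genes, by flipping the signs of the 6 array differences (an exact permutation test, two-sided). For 8 pairs the difference had the same sign on every array, which gives an exact p of 0.0312, the smallest that 6 arrays allow. After Benjamini-Hochberg adjustment over the 15 pairs this became 0.0585, so 0 passed the threshold by this permutation test. No difference, however large, could have passed unless more pairs had also reached that smallest p. These 8 pairs were c against a and b in Smarca2, c against a and b in Smarca4, a against b in Smarcc1, and a against b, c and d in Smarce1. The smallest and the largest mean difference among them both belonged to Smarce1, with -0.28 for a minus d and -0.68 for a minus b.

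The gene that went the other way was Smarcd3, which encodes BAF60c, a subunit known for its roles in heart and skeletal muscle. Its only spot stood at 0.00, 0.67, 0.77, 0.34, 0.50 and 0.55 on arrays 1 to 6. It was well above 0 on arrays 2 to 6 and at 0 on array 1. The mean of 0.47 ± 0.27 is 1.39-fold the scrambled level (95% interval 0.23 to 0.71, adjusted p = 0.0240 in limma), and 98.99% of all genes had a mean as low or lower. The rise was 0.59 ± 0.16 without array 1 (adjusted p = 1.2e-05 in limma). Without any of arrays 2 to 6 the mean stayed between 0.40 and 0.50, but the adjusted p lay between 0.065 and 0.104.

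Smarcd1, the BAF60a paralog, Smarcc2, the BAF170 scaffold, and Actl6b (BAF53b), the neuronal actin-like subunit, were not called. Smarcd1 stood at -0.10, -0.09, -0.05, -0.26, -0.03 and 0.00 on arrays 1 to 6, with a mean of -0.09 ± 0.09 (95% interval -0.18 to 0.0021, adjusted p = 0.206 in limma). Smarcc2 lay between -0.14 and 0.04, with a mean of -0.04 ± 0.07 (95% interval -0.11 to 0.03, adjusted p = 0.517). Its spots were at -0.0077 ± 0.15 and -0.07 ± 0.09. Actl6b lay between -0.03 and 0.06 on the 6 arrays. Its mean was 0.02 ± 0.05 with a 95% interval of -0.04 to 0.07 (adjusted p = 0.778 in limma). Both Actl6b spots were near 0, at 0.0013 ± 0.06 and 0.03 ± 0.05.

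The next comparison set paralogs that take the same place in the complex against each other within each array, over 4 pairs. Smarcc1 was lower than Smarcc2 on 6 of 6 arrays, with a difference in log2 ratio of -0.26 ± 0.17 (SD, n = 6). The array differences were -0.60, -0.19, -0.17, -0.22, -0.12 and -0.29. With the first spot of each gene in place of the mean, the difference was -0.10 ± 0.17 and was below 0 on arrays 1, 2 and 6 only. Smarcd1 was lower than Smarcd3 on 6 of 6 arrays, by -0.56 ± 0.25. The array differences were -0.10, -0.76, -0.82, -0.60, -0.53 and -0.54, with array 1 the smallest. For both pairs p was 0.0312 by the same exact permutation test, the smallest 6 arrays allow, and 0.0416 after adjustment over the 4 pairs. Whether this smallest p passes depends on how many of the tested pairs reach it, and not on the size of a difference.

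Between the ATPases the difference was smaller. Smarca4 minus Smarca2 was -0.10 ± 0.11 (SD, n = 6), below 0 on 6 of 6 arrays (exact sign-flip permutation p = 0.0312, adjusted 0.0416). On arrays 2, 5 and 6 it was within 0.01 of 0, at -0.005, -0.008 and -0.008. The size depended on how spots were combined, with -0.30 for the median of spots and -0.37 for the first spot of each gene. Among the called spots the order was reversed, with spot c of Smarca2 at -0.54 and spots a and b of Smarca4 at -0.41 and -0.43. Actl6a minus Actl6b was -0.07 ± 0.15, with array differences from -0.24 to 0.12 (exact permutation p = 0.344, also after adjustment). The exact 96.9% interval of each difference is its lowest to its highest array value. For Actl6a it thus spans 0, and the pair is not shown to act alike. Actl6a itself was above 0 on arrays 2 and 3 (0.09 and 0.16) and below 0 on the others (-0.04, -0.11, -0.22 and -0.18 on arrays 1, 4, 5 and 6). Actl6a minus Actl6b had a mean of 0.04 ± 0.12 on the Cy5 arrays and -0.17 ± 0.08 on the Cy3 arrays. The dye term of Actl6a, 0.24, was not called (adjusted p = 0.429 in limma). As 0 of all 19019 genes were called, this does not show that Actl6a was free of a dye effect.

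**Figure D3:**
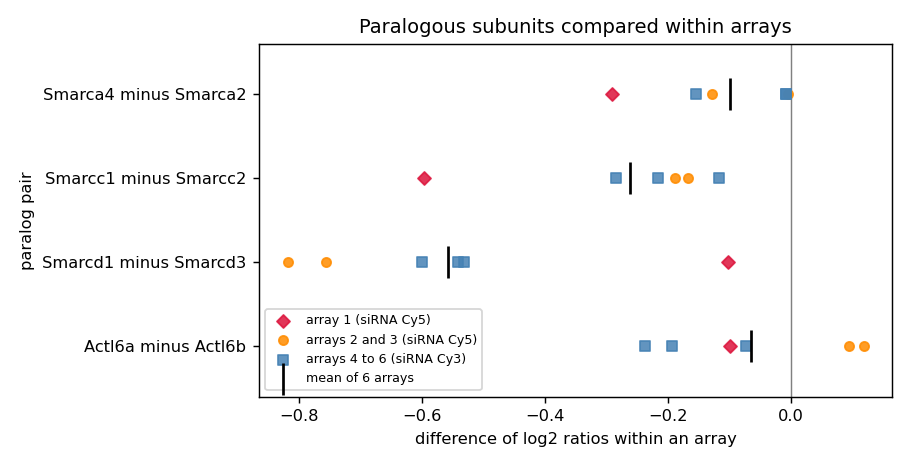
Difference of the log2 ratios of 2 paralogous subunit genes within each array, with 1 point for each of the 6 arrays (diamond, array 1; circles, arrays 2 and 3; squares, arrays 4 to 6) and a vertical tick at the mean. All points of Smarcc1 minus Smarcc2 and of Smarcd1 minus Smarcd3 lie below 0, and those of Actl6a minus Actl6b lie on both sides.

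Each called member had the same sign of its mean in both dye orientations. Smarca4 had a mean of -0.29 ± 0.09 (SD, n = 3) over arrays 1 to 3 (siRNA in Cy5) and -0.27 ± 0.02 over arrays 4 to 6 (siRNA in Cy3). For Smarcd3 the values were 0.48 ± 0.42 and 0.46 ± 0.11, and for Smarcc1 -0.35 ± 0.18 and -0.25 ± 0.0009. Smarca2 stood at -0.15 ± 0.06 and -0.21 ± 0.06, and Smarce1 at -0.26 ± 0.16 and -0.22 ± 0.03. A dye term was called for 0 of the 9 genes in limma, with 0 at an unadjusted p under 0.05. It was called for 0 of all 19019 genes too, so the count does not set the members apart. Among the 19 member spots 0 were called, with 1 at an unadjusted p under 0.05, where 0.558% of all spots were called. On the 3 Cy3 arrays alone 5 members were lower and 1 higher, where 11.7% and 10.7% of all genes were called (22.4% in either direction). On the 3 Cy5 arrays alone, where 9 of all genes passed (0.0473%), 0 members did in limma. There 5 of the 9 members had an unadjusted p under 0.05, beside 2510 of all 19019 genes.

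Other subunits of SWI/SNF complexes were described as a second list of 21 genes, of which 20 were measured. Here 1 rose and 0 fell, where 5.88% and 9.11% of all genes did, and 19 were not called in limma. In this list 6 of 20 had an unadjusted p under 0.05 in limma, beside 4894 of all 19019 genes. The list median was -0.02. The gene that rose was Ss18, a subunit best known from its fusion in synovial sarcoma, which in neural development gives way to Ss18l1 (CREST). Its spot stood at 0.44, 0.62, 0.70, 0.53, 0.63 and 0.48 on arrays 1 to 6, above 0 throughout. The mean was 0.57 ± 0.10 (SD, n = 6, adjusted p = 0.000604 in limma), or 1.48-fold the scrambled level. Its neuronal counterpart Ss18l1 was at -0.03 ± 0.07 (adjusted p = 0.539). The other subunits of neuronal complexes, Dpf1 at 0.01 ± 0.08 and Dpf3 at -0.12 ± 0.13 (adjusted p = 0.813 and 0.0720 in limma), were not called either. The gene means of the other 19 lay between -0.19, for Brd7, and 0.10, for Arid2. Without array 1 the list held 4 higher and 3 lower, where 13.7% and 12.2% of all genes were called.

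**Figure D4:**
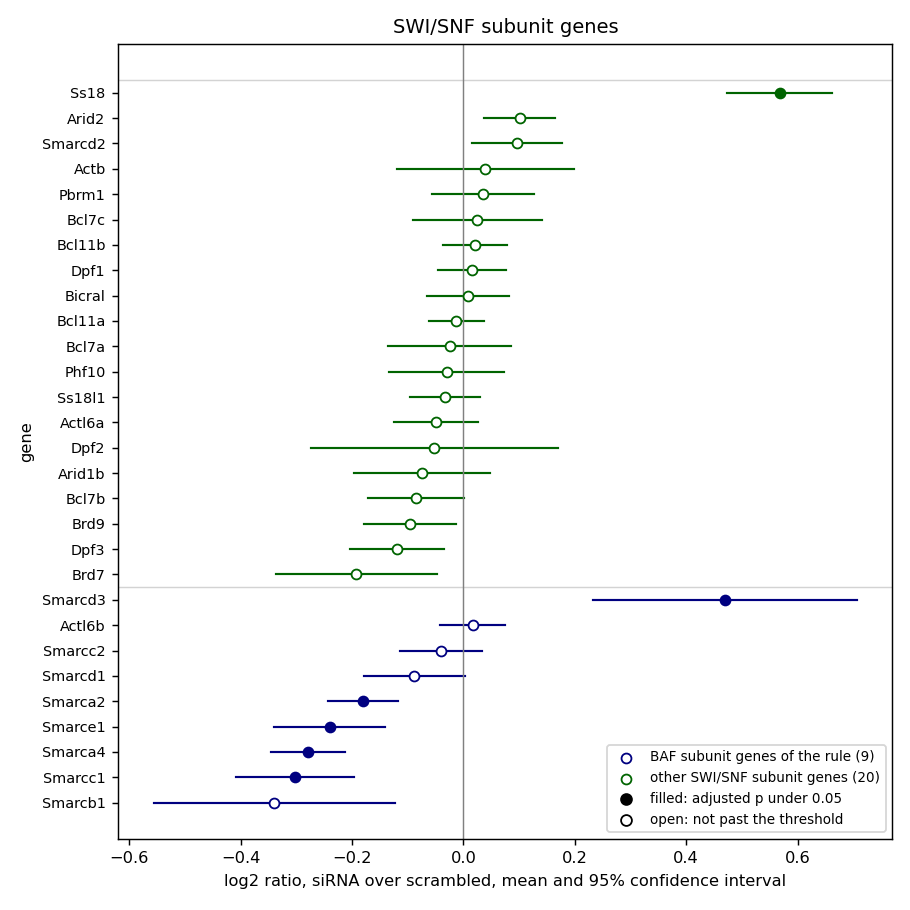
Mean log2 ratio over 6 arrays with its 95% confidence interval from limma, for the 9 measured BAF subunit genes (blue) and 20 other SWI/SNF subunit genes (green). Filled points passed an adjusted p under 0.05: Smarca2, Smarce1, Smarca4 and Smarcc1 below 0, and Smarcd3 and Ss18 above 0.

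Lists of other remodellers give the scale of these counts, beside 9.11% of all genes lower and 5.88% higher. Of 8 genes of the INO80 and SRCAP complexes 3 fell and 0 rose: Actr6 (-0.80 ± 0.20, SD, n = 6), Ruvbl2 (-0.37 ± 0.19) and Ruvbl1 (-0.25 ± 0.14). Of 18 CHD and NuRD genes 4 fell and 1 rose, with Chd3 at 0.21 ± 0.11, Chd7 at -0.20 ± 0.04 and Rbbp4 at -0.18 ± 0.09. Of 11 ISWI genes 1 fell, the ATPase Smarca5 (-0.19 ± 0.10), and 1 rose, Baz1a (0.34 ± 0.15). Of 11 other SNF2-type ATPases 2 fell and 0 rose, Hells (-0.58 ± 0.19) and Rad54b (-0.08 ± 0.04). The list medians were -0.06, -0.04, -0.03 and -0.03 in this order. Without array 1, 3, 5, 2 and 2 genes were lower and 0, 3, 2 and 1 higher, in the same order. Among all genes 12.2% were then lower and 13.7% higher. Whether these lists differ from the BAF subunits was not tested.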

How the data were processed

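The authors deposited 1 normalized log ratio for each spot of each 2-colour Agilent array, taken here as log2. Per the labels' protocols, RNA was isolated with Trizol and labelled by linear amplification (Agilent). The scanner and the methods of background correction and normalization are not named in the labels. The log base was inferred: 29 unnamed spots that changed sign with the dyes had a median of 3.15, a ratio of 8.86 on a log2 scale and 23.3 on a natural log scale. Were the base natural, folds would be larger than printed. Named spots correlated positively between orientations (0.53 to 0.71, arrays 2 to 6) and unnamed spots negatively (-0.68 to -0.65), so the ratios had been turned to 1 direction and signs were left as deposited.

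The platform table named 1 gene for 32042 of 44290 spots and several for 47. Symbols were checked through identifiers in the GRCm38.p6 RefSeq table, which held 31906. Spots with values on all 6 arrays (43530) were tested, and 31866 with 1 gene were averaged to 19019 genes. Tests used R 4.3.3 and limma 3.58.1 (lmFit, eBayes) with a dye term and 4 residual degrees of freedom, with Benjamini-Hochberg adjustment over all genes or all spots and a threshold of 0.05. Differences within an array used exact sign-flip permutation tests. Ratios do not show how far a spot was above background, and 6 arrays limit the precision.

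The members and all lists were chosen with earlier results of these data known. Named were all members, Rest, paralogs, called subunits, neuronal subunits and the extremes of the subunit list (the last 2 chosen after their values were seen), and up to 3 called genes of each other list with the largest change. Promoters are RefSeq's. The alternatives concerned the dye term, arrays left out, orientation, combining spots, scaling between arrays, missing values and the variance estimate (robust with statmod 1.5.0, or unmoderated).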

Additional observations from a re-analysis of the deposited data

Results flagged for a closer look

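Array 1 lay far from the other 5 arrays in 3 of the 25 sets of values examined, by Dixon's gap test at the 95% level, which marks about 1 in 20 sets by chance. Smarcb1 was at -0.86 on array 1 (gap 0.803 of the range), the gene mean of Smarcc1 was at -0.56 (0.86), and spot b of Smarcc1 was at -1.05 (0.696). The 5th percentile of all genes on that array was -0.53. The part of that array in these values was not tested. Without array 1 Smarcc1 stayed lower (-0.25 ± 0.02, adjusted p = 7.16e-05 in limma) and Smarcb1 passed (-0.23 ± 0.06, adjusted p = 0.000138).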

How the results depend on the processing

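Among the member genes, Smarca4 passed under 15 of 16 alternatives, Smarca2 and Smarcc1 under 13, Smarce1 under 11, Smarcd3 under 9 and Smarcb1 under 5, while Smarcc2, Smarcd1 and Actl6b passed under none in limma. No called member changed sign under any of them. The count of called members was 3 to 6 with 1 array left out (3 without array 4, 5 or 6, and 6 without array 1), 3 with the first spot per gene, 2 without moderation and 0 on the Cy5 arrays alone. For member spots it was 3 to 9 with 1 array left out (3 without array 5 or 6, 9 without array 1), 1 without moderation and 0 on the Cy5 arrays, where 7 had an unadjusted p under 0.05 in limma. Among all genes 1116 to 4921 passed with 1 array left out, 9 on the Cy5 arrays (2510 at an unadjusted p under 0.05 in limma) and 870 without moderation. Among all spots the numbers were 1918 to 8460, 0 (5302 at an unadjusted p under 0.05 in limma) and 771, with 7924 on the Cy3 arrays. In the list of other subunits, 1 to 7 passed with 1 array left out, 2 without the dye term, with the median of spots or with equal spread between arrays, 4 with quantile normalization, 8 on the Cy3 arrays and 0 on the Cy5 arrays, where 3 had an unadjusted p under 0.05. With 1 array left out, Smarca4 minus Smarca2 lay between -0.12 and -0.06, Smarcc1 minus Smarcc2 between -0.29 and -0.19, Smarcd1 minus Smarcd3 between -0.65 and -0.51, and Actl6a minus Actl6b between -0.10 and -0.03. Smarca4 minus Smarca2 was -0.30 with the median of spots and -0.37 with the first spot. The cause of these shifts was not tested. For 5 arrays the sign-flip test cannot go below 0.0625 and for 3 arrays it cannot pass either, so differences between spots were not retested there, and they passed for 0 pairs under both rescalings. No further pairing was made, because each array already sets the siRNA sample against its control and the arrays form a single group.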
